A study of Mus musculus with 12 samples.

Results

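The genes described here are 49 parts of the machinery that copies and divides chromosomes, measured in lineage-negative (Lin-) mouse bone marrow cells that carried leukemia oncogenes. They were taken by symbol from the gene count table, where all 49 were found among 51912 genes. In the order of the list, the 27 from Mcm2 to Slbp act in S phase, when DNA is copied, and the 22 from Ccna2 onward act in G2 and mitosis. All 49 passed the filter on low counts.

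RNA-seq had been carried out on marrow of C57BL/6 mice transduced at the same time with retroviral vectors, in 4 groups of 3 biological replicates lettered A, B and C. The groups carried empty vector as the negative control, the CSF3R T618I vector, the CEBPA V314VW vector, or both. The T618I mutation activates CSF3R, through which cells sense the cytokine G-CSF, and V314VW lies in the C-terminal region of CEBPA, a transcription factor that granulocytes need to form. All groups shared culture in IL-3, IL6, SCF and medium conditioned by WEHI cells while they were transduced and the sort for Lin- cells bearing the vectors' fluorescent markers, so every sample is a sorted, cytokine-grown population and not resting marrow, and the mutants were expressed from the vectors on top of the cells' own genes. No source says that replicates with the same letter came from 1 mouse or 1 culture, and p-values measure only the spread between these libraries.

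A cell that is about to divide loads the MCM helicase onto replication origins, fires them with CDC45 and GINS, and copies DNA with polymerases that slide on the PCNA clamp, while ribonucleotide reductase supplies deoxynucleotides. It then builds up cyclins A and B and the mitotic kinases, and separates the chromosomes under the spindle checkpoint. In many cell types E2F factors are known to drive the S phase genes at entry into the cycle, while many mitotic genes carry CCAAT boxes and the cell cycle genes homology region (CHR) in their promoters. Marrow progenitors cycle, and granulocytes stop dividing as they mature.

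Promoters are shown first because the sets differ there in ways that were not used to choose them. RefSeq promoter sequences on GRCm38.p6 matched 41 members, 23 of the S phase set and 18 of the G2/M set. The 250 bases before the start of transcription were searched on both strands for the E2F-type words TTCCCGC and also TTCGCGC, then TTGCCGC together with TTGGCGC; for the CHR word TTTGAA or its variant TTTAAA; for the CCAAT box; and for a STAT word TTCNNNGAA and a C/EBP word TTGCNNAA, where N is any base and overlapping matches were each kept. The 8 promoters below belong to members that rose with mutant CSF3R against empty vector (Rrm2, Aurka, Plk1, Cdc20, Birc5), to Cdc25a, which rose when mutant CSF3R was added to mutant CEBPA, and to Mcm5 and Top2a, which did not pass the test in any comparison. They are written 5′ to 3′ on the gene's strand up to the base before the start, leaving off any bases that lie inside the annotated gene, with E2F-type, CHR and CCAAT matches in capitals.
Rrm2 (chr12:24708004-24708240, plus strand): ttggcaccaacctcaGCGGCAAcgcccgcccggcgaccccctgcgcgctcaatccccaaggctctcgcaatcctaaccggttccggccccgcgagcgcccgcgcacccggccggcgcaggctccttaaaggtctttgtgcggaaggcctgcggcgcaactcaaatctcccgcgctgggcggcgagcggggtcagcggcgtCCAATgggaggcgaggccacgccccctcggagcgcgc
Cdc25a (chr9:109875329-109875578, plus strand): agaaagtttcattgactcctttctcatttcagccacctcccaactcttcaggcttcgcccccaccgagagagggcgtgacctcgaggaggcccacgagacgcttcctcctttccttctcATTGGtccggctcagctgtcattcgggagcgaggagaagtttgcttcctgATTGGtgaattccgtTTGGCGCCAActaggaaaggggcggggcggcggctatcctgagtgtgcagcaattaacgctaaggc
Mcm5 (chr8:75109259-75109508, plus strand): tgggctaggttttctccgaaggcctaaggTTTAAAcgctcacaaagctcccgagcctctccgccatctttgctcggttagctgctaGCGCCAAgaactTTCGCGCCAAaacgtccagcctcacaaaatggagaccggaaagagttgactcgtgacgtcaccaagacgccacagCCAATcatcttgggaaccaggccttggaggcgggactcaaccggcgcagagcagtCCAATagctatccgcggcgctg
Aurka (chr2:172370571-172370820, minus strand): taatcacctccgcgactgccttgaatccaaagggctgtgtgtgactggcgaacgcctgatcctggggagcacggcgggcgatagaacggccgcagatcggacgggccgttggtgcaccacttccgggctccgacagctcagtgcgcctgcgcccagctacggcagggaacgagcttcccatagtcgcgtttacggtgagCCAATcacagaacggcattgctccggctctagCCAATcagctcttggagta
Plk1 (chr7:122159185-122159434, plus strand): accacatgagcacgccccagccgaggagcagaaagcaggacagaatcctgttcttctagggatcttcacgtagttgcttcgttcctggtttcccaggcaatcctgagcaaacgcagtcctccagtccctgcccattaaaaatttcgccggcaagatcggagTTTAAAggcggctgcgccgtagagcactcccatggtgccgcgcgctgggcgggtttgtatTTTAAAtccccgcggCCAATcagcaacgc
Cdc20 (chr4:118437353-118437593, minus strand): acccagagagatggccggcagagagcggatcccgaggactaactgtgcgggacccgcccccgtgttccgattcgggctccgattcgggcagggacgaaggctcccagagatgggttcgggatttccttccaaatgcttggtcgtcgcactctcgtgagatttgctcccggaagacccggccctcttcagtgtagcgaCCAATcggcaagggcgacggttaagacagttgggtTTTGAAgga
Birc5 (chr11:117848987-117849236, plus strand): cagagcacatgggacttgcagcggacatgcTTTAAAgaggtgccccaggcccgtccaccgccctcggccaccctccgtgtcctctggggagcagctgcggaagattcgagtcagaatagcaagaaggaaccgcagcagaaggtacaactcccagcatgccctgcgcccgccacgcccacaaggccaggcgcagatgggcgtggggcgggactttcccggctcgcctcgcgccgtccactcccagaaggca
Top2a (chr11:99024190-99024439, minus strand): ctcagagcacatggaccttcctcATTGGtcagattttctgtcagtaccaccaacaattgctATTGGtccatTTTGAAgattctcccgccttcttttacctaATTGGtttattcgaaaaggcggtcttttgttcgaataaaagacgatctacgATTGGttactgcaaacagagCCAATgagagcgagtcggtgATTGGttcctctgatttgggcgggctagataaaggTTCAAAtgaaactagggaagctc

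An E2F-type word stood in 10 of 23 S phase promoters (43.5%), in 3 of 18 G2/M promoters (16.7%) and in 8.03% of 27025 mouse promoters of the same length. A CHR word stood in 5 of 23 (21.7%), in 10 of 18 (55.6%) and in 25.5% of all promoters. CCAAT stood in 15 of 23 (65.2%), in 15 of 18 (83.3%) and in 34.5% of all, and both a CHR word and CCAAT were present in 9 G2/M promoters (50%) against 9.02% of all. Top2a, which encodes a DNA topoisomerase, held the most CCAAT matches, 6, beside 2 CHR matches. Mcm5 held 3 E2F-type matches within its window, the most distal starting 164 bases before the start, while Rrm2 held 1 at 235 bases and a CCAAT at 50. These distances run back from the RefSeq start and so include the bases left off the printed Rrm2 sequence. The STAT word was found in 3 of 23 S phase promoters (Mcm5, Cdc45 and Lig1) and 0 of 18 G2/M promoters, against 7.14% of all promoters, and the C/EBP word in 3 and 0, against 9.55%. Of the S phase members that rose with mutant CSF3R alone, 2 of 4 with a promoter held an E2F-type word, as did 8 of the 19 that did not; for CHR words in the G2/M set the counts were 6 of 8 and 4 of 10. These matches are letters in a window and not measured binding.

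**Figure D1:**
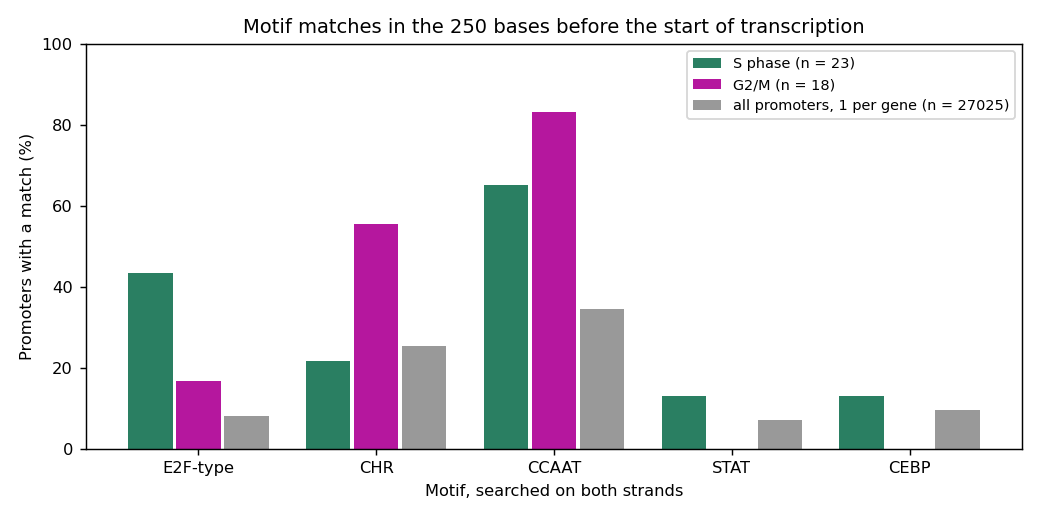
Share of promoters with at least 1 match to each motif (vertical axis, percent) in the S phase set (23 promoters), the G2/M set (18) and all 27025 mouse promoters. E2F-type words stood in 43.5% of the S phase promoters and CHR words in 55.6% of the G2/M promoters.

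Libraries held 44210071 to 67431235 counts, and the smallest member count was 157, for Fen1; without it the smallest was 1216. The coefficient of variation between replicates was at or below the counting error in 2 of 49 members with empty vector, 1 with mutant CSF3R, 2 with mutant CEBPA and 8 with both, where the median counting error was 1.05%. Levels are given as CPM, read counts scaled to a common library size by the TMM method. In the empty vector group the stem cell factor receptor Kit stood at 201 CPM on average and the granule enzyme Mpo at 6203, while the 4 T cell markers summed to at most 0.193 CPM and 2 of them were at 0 in all 3 libraries. The marker lists moved with the groups. The 10 late neutrophil markers summed to 443 to 1010 CPM with empty vector, 4073 to 9086 with mutant CSF3R, 820 to 1066 with mutant CEBPA and 1927 to 2284 with both. These sums do not measure the share of cells that had stopped dividing. The collagenase gene Mmp8 made up most of the sum in the CEBPA groups, where its mean was 841 CPM for mutant CEBPA alone and 1181 CPM for both, against 5.39 CPM in the controls. With mutant CEBPA 7 of the 10 fell and 1 rose, with S100a8 at 323 CPM with empty vector and 57.3 with mutant CEBPA; with mutant CSF3R 7 rose and 0 fell. The 8 erythroid markers summed to 366 to 593, 990 to 1209, 301 to 481 and 603 to 615 CPM in the same order, and the 6 progenitor markers to 1394 to 1620, 655 to 791, 1241 to 1366 and 885 to 910 CPM. Tfrc made up most of the erythroid sum with empty vector, at 428 CPM on average, and stood at 579 CPM with mutant CSF3R. Slc4a1 went from 0.0963 to 149 CPM and Hbb-bs from 1.67 to 130 CPM there, and 7 of the 8 rose and 0 fell. Of the 6 progenitor markers, 3 rose and 2 fell with mutant CEBPA alone, and all 6 fell with mutant CSF3R alone. The 4 mast cell and basophil markers summed to 2249 to 2951, 1005 to 1455, 1514 to 1648 and 427 to 507 CPM, and the 4 early granulocyte markers to 8454 to 13537, 6822 to 8176, 5374 to 6832 and 4632 to 5262 CPM. With mutant CSF3R alone, Mpo fell from 6203 to 2749 CPM and Elane from 2876 to 1870 CPM. Prtn3, at 1126 and 1412 CPM, and Ctsg, at 1103 and 1274 CPM, were higher there without passing. The monocyte, megakaryocyte and B cell lists were lower with both mutants than with empty vector in every library, with highest sums of 271, 73.6 and 5.82 CPM against lowest sums of 351, 137 and 12.3 CPM. Within the monocyte list Ccr2 rose, from 95 CPM with empty vector to 156 CPM with both mutants, while 3 markers fell. No marker of the first 5 lists was at 0 throughout a group, and their part in the results below was not tested. In these bulk samples fewer dividing cells and less RNA per dividing cell cannot be told apart. Cebpa stood at 137 to 147 CPM in the 6 libraries without the CEBPA vector and at 177 to 219 in the 6 with it. Csf3r stood at 95.1 to 126 CPM with empty vector, 130 to 268 with mutant CSF3R, 23.7 to 29.5 with mutant CEBPA and 97.1 to 98.8 with both. Whether reads of the vectors' inserts were counted to these mouse genes is not given in the sources used here, so they do not check the labels.

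The members were abundant. Per kilobase of exon, the highest mean levels with empty vector were those of Rrm2, the small subunit of ribonucleotide reductase, at 300 ± 3.35 CPM per kb (SD, n = 3), Mcm6 at 188 ± 5.33 and Mcm3 at 167 ± 5.44, both subunits of the replicative helicase. Ccnb2 (cyclin B2) at 137 ± 7.95 and Cdc20, which activates the ligase that ends mitosis, at 127 ± 4.33 CPM per kb came next, and these did not differ beyond their spread. The lowest were Cenpf, a kinetochore protein, at 4.47 ± 0.707 and the flap endonuclease Fen1 at 1.73 ± 0.0304 CPM per kb. Exons of Fen1 overlap those of Tmem258 and Gm10143 over up to 1909 bases, those of Gins2 overlap Gse1 over 2758 bases, and those of Kif20a and Prc1 overlap Cdc23 and Rccd1 over 977 and 670 bases, so the counts of these 4 members are uncertain.

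Spread between replicates differed by group. The median coefficient of variation over the 49 members was 6.72% with empty vector, 13.4% with mutant CSF3R, 6.06% with mutant CEBPA and 2% with both mutants. Within the mutant CSF3R group, replicate A was the lowest of the 3 for 31 members and replicate C was the highest for 34. Replicate C lay above all empty vector libraries for 41 members and below them for 0, whereas replicate A lay above for 22 and below for 20. Of all genes tested, 33.7% lay above and 31.8% below in replicate C, and 39.2% and 39.9% in replicate A. Between these libraries 14 members were higher in A, with Birc5 and Gins1 farthest, and 35 were higher in C, with Pole farthest. The log2 ratio of A to C ran from -1.05 to 1 and was lower for longer genes (Pearson r = -0.316, Spearman rho = -0.301 across the 49 genes of these libraries, which are not independent).

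**Figure D2:**
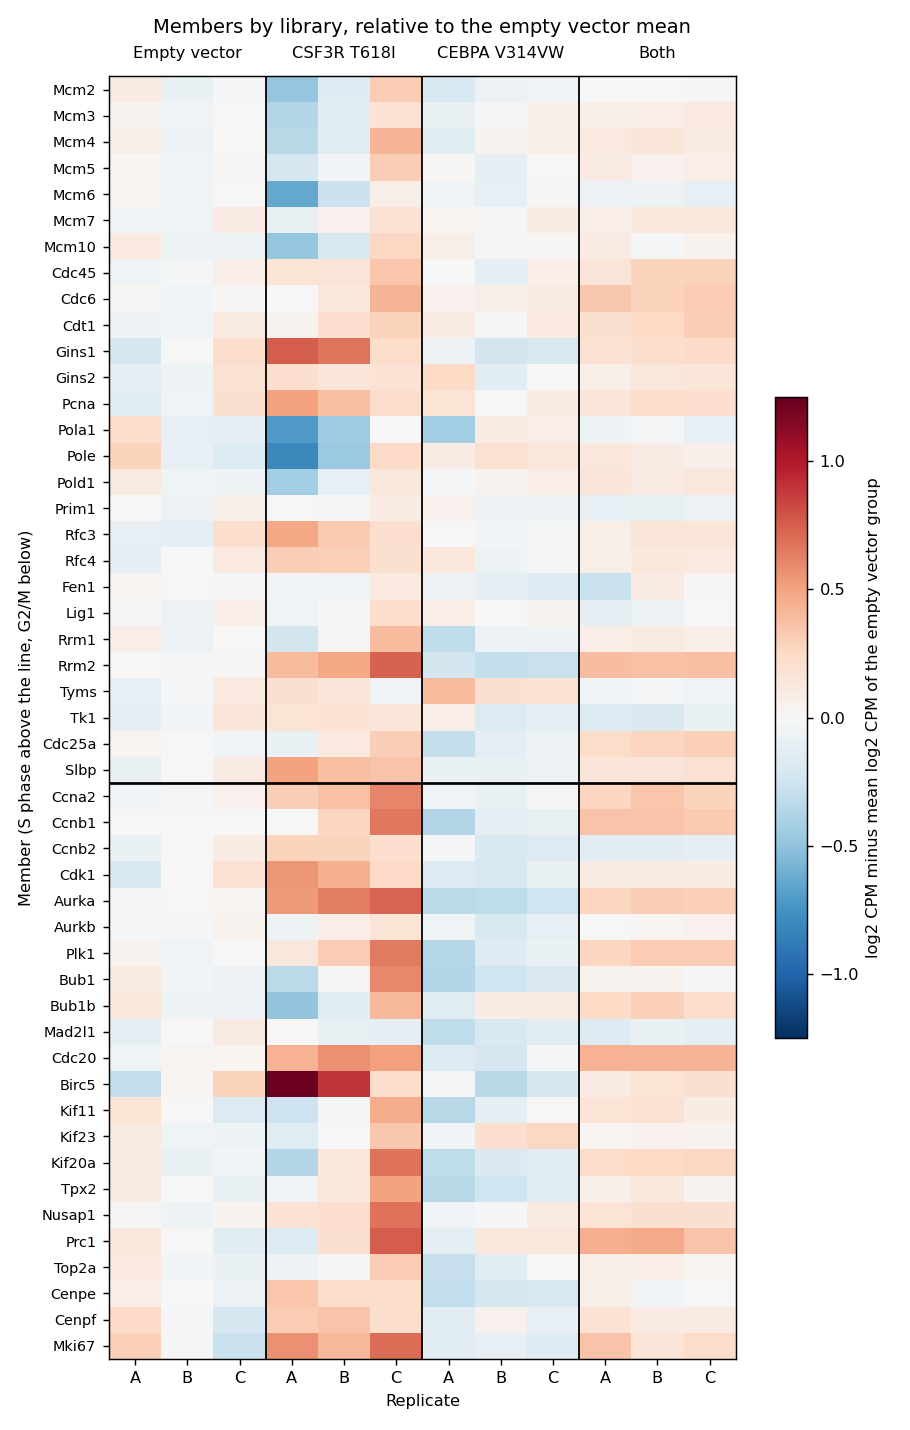
Level of each of the 49 members (rows, S phase set above the line and G2/M set below) in each of the 12 libraries (columns), as log2 CPM minus the mean log2 CPM of the empty vector group. Replicate C of CSF3R T618I lay above all empty vector libraries for 41 members and below for 0 (33.7% and 31.8% of all genes), and replicate A above for 22 and below for 20 (39.2% and 39.9%), while the libraries with both mutants resembled each other, with a median coefficient of variation of 2%.

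To compare the sets within a library, the mean log2 CPM over each set was taken relative to the empty vector group. The difference of the sets cannot be moved by a scaling factor. The S phase mean lay between -0.05 and 0.05 in the empty vector libraries, and at -0.05, 0.06 and 0.24 in replicates A, B and C with mutant CSF3R. It lay between -0.05 and 0.00 with mutant CEBPA and between 0.08 and 0.11 with both. The G2/M mean stood at 0.13, 0.24 and 0.44 with mutant CSF3R, at -0.20, -0.13 and -0.07 with mutant CEBPA, and at 0.16, 0.17 and 0.15 with both, against -0.02 to 0.04 with empty vector. The G2/M set thus lay outside the empty vector range in all 9 libraries with a mutant, above it with mutant CSF3R present and below it with mutant CEBPA alone. Single genes often lay outside it: 39.2% of all genes were above and 39.9% below in mutant CSF3R replicate A. In replicate C the shares were 33.7% and 31.8%. How often the mean of another gene set would lie outside was not tested.

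The difference of the sets, G2/M minus S phase, stood at 0.18, 0.18 and 0.20 in the 3 libraries with mutant CSF3R, at -0.19, -0.08 and -0.07 with mutant CEBPA and at 0.09, 0.07 and 0.04 with both. In the empty vector libraries it was 0.04, 0.03 and -0.07, so no mutant group overlapped the controls. Whether differences between other gene sets would do the same was not tested. The nearest libraries lay close to them, at 0.042 for replicate C of both mutants against a highest control of 0.0408, and at -0.0702 for replicate C of mutant CEBPA against a lowest control of -0.0683. The mutant CSF3R libraries, which differed most in the level of each set, gave nearly the same difference (SD 0.0119). In the 14 S phase and 11 G2/M members at or under the median exon length of 4338 bases, the differences were 0.07, 0.17 and 0.23 with mutant CSF3R, -0.19, -0.07 and -0.06 with mutant CEBPA, 0.12, 0.09 and 0.08 with both, and -0.05 to 0.03 with empty vector. In these shorter members the mutant groups still did not overlap empty vector and the group means kept their order, but replicate A with mutant CSF3R lay below all 3 libraries with both mutants. No p is given, since the members were chosen with earlier results known.

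**Figure D3:**
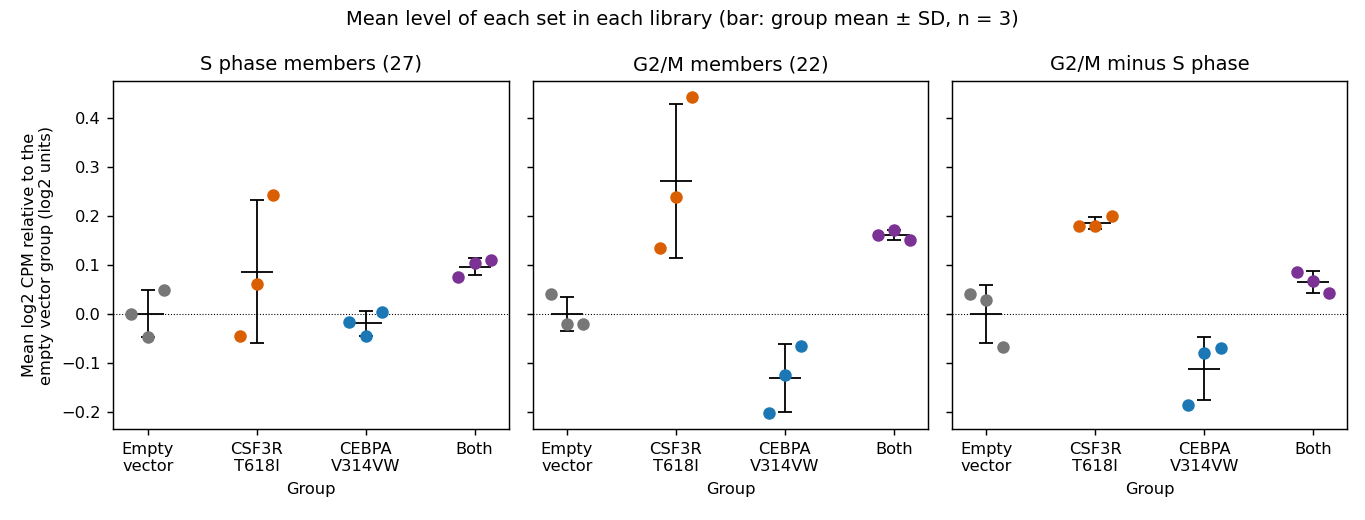
Mean log2 CPM of the S phase set, of the G2/M set and their difference in each library, relative to the empty vector group (points: libraries; bars: group mean ± SD, n = 3). The G2/M minus S phase difference lay at 0.18 to 0.20 with CSF3R T618I, at -0.19 to -0.07 with CEBPA V314VW and at 0.04 to 0.09 with both.

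With mutant CSF3R alone 14 of the 49 members rose and 0 fell at an adjusted p under 0.05 (edgeR's quasi-likelihood test with Benjamini-Hochberg adjustment over all 16360 genes tested), 5 of 27 in the S phase set and 9 of 22 in the G2/M set. By DESeq2 17 members rose and 0 fell, while 2072 of 16360 genes rose and 2022 fell. At an unadjusted p under 0.05 by edgeR 19 members were higher and 0 lower. The share of all genes at an unadjusted p was not computed, here or in later comparisons. Over all genes tested in the main edgeR fit, 10% rose and 9.66% fell, against 28.6% and 0% of the members. That fit estimates 1 spread for each gene from all 4 groups. The median coefficient of variation of the members was 13.4% with mutant CSF3R and 2% with both mutants. The p-values and standard errors given for this comparison thus draw in part on groups outside it. By limma-voom with group weights 9 members rose and 0 fell, while 1123 of 16360 genes rose and 929 fell. In an edgeR fit of the compared groups only, 1 S phase and 2 G2/M members rose and 0 fell. Of 15304 genes tested there, 898 rose and 804 fell, so the share of the 49 members that rose was near that of all genes. The excess of members that rose in the main fit was not seen there. Fold changes were small: 0 of 49 members passed a log2 fold change of 1 on top of the adjusted p, the rule for a called gene, which 8.5% of all genes met; the same count of 0 was found in all 6 comparisons, by edgeR, DESeq2 and limma-voom. The median log2 fold change was 0.08 in the S phase set and 0.27 in the G2/M set, against 0.01 over all genes. Scaled by total counts, where the median of all genes moved to -0.10, these medians were -0.03 and 0.17. Whether the sets differed in their response was not tested.

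The S phase members that rose were Rrm2, Gins1, Pcna, Slbp and Rfc3, and Rrm2 alone of the 4 nucleotide supply genes passed. Rrm2 stood at 831, 820 and 839 CPM in empty vector replicates A, B and C and at 1089, 1163 and 1387 CPM with mutant CSF3R. Every mutant CSF3R library was above every empty vector library, and the log2 fold change was 0.55 ± 0.09 (SE), with an adjusted p of 0.000905 by edgeR. For this and later statements that groups did not overlap, the share over all genes was not computed, so they only describe the values. Gins1, a subunit of the GINS complex, stood at 24.6, 28.8 and 33.4 CPM with empty vector and 48.4, 45.5 and 33.6 CPM with mutant CSF3R, and rose by a similar size (adjusted p = 0.0142 by edgeR), with replicate C barely above the highest control. Pcna, the sliding clamp, stood at 162, 172 and 206 CPM against 254, 233 and 209 CPM, a rise of 0.37 ± 0.11 on the log2 scale. Slbp, which binds the stem-loop of histone mRNAs, rose by 0.41 ± 0.08 and Rfc3, part of the clamp loader, by 0.34 ± 0.11.

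The helicase subunits did not pass the test. Mcm2 stood at 542, 476 and 497 CPM with empty vector and 361, 450 and 628 CPM with mutant CSF3R, and Mcm5 at 461, 439 and 458 against 390, 442 and 561 CPM. In both genes the mutant CSF3R libraries straddled the controls. Of the 12 genes of helicase loading and activation, Gins1 alone passed, and their median log2 fold change was 0.04. The lowest S phase value was that of Pola1, the catalytic subunit of polymerase alpha, at 167, 133 and 131 CPM with empty vector and 87.6, 105 and 143 CPM with mutant CSF3R (-0.36 ± 0.18 on the log2 scale, adjusted p = 0.186 by edgeR). Pole, the catalytic subunit of polymerase epsilon, stood at 88.7, 68.1 and 64.8 against 41.8, 53.2 and 86.4 CPM, with its widest spread in the mutant CSF3R group. Tyms (thymidylate synthase) stood at 147, 155 and 172 against 181, 175 and 153 CPM and overlapped between the groups.

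Among the G2/M members, 5 of 7 cyclins and mitotic kinases rose. Aurka, the kinase of the centrosome and spindle pole, stood at 206, 208 and 212 CPM with empty vector and 301, 325 and 345 CPM with mutant CSF3R, which gave 0.63 ± 0.08 on the log2 scale and an adjusted p of 0.000103 by edgeR. The groups did not overlap. Plk1, polo-like kinase, stood at 185, 174 and 179 CPM against 198, 224 and 281 CPM (0.39 ± 0.12, adjusted p = 0.0403), and Cdk1, the kinase that drives entry into mitosis, at 161, 184 and 208 against 268, 249 and 216 CPM (0.41 ± 0.11, adjusted p = 0.0195 by edgeR). Ccna2 (cyclin A2) rose by 0.43 ± 0.09 and Ccnb2, at 197, 208 and 222 CPM with empty vector and 254, 253 and 241 CPM with mutant CSF3R, by 0.25 ± 0.08. Ccnb1 (cyclin B1) stood at 268, 266 and 265 CPM against 268, 321 and 421 CPM and did not pass (0.34 ± 0.14, adjusted p = 0.107); its replicate A equaled the controls.

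Cdc20 stood at 229, 243 and 242 CPM with empty vector and 322, 353 and 340 CPM with mutant CSF3R, without overlap (0.51 ± 0.08, adjusted p = 0.00071 by edgeR). Birc5, or survivin, a subunit of the chromosomal passenger complex, gave the largest value of any member, 0.82 ± 0.21, from 178, 224 and 269 CPM to 514, 411 and 257 CPM. Here replicate C lay within the range of the controls, and the groups overlapped. Mki67, which coats mitotic chromosomes and encodes the Ki-67 antigen of dividing cells, stood at 320, 255 and 214 against 386, 345 and 422 CPM and rose by 0.55 ± 0.13. Cenpe, a centromere motor, rose by 0.26 ± 0.08. Top2a stood at 566, 508 and 492 CPM with empty vector and 498, 511 and 648 CPM with mutant CSF3R and did not pass (0.08 ± 0.11). The lowest G2/M value was that of the checkpoint protein Mad2l1, -0.07 ± 0.09, at 154, 168 and 180 against 168, 157 and 155 CPM. None of the 6 kinesin, spindle and cytokinesis genes passed.

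Which members passed depended on the libraries. Rrm2, Slbp, Aurka, Cdc20 and Ccna2 passed without any 1 of the 12 libraries, whereas Ccnb2 and Cenpe passed in 1 of 12 such fits, Plk1 and Rfc3 in 2 and Pcna in 3. Slbp and Ccna2 did not pass in the fit of the compared groups only, with log2 fold changes of 0.41 and 0.43. The log2 fold change of Plk1 was 0.23 without mutant CSF3R replicate C. The count of S phase members that rose fell from 5 to 2 without empty vector replicate A or B or mutant CSF3R replicate A or B, and to 3 without mutant CEBPA replicate B or C or any 1 library with both mutants. The G2/M count fell from 9 to 5 without empty vector replicate A or C and to 4 without replicate B. Over all genes 1636 rose in the main fit and 1175 to 1470 without 1 empty vector library. Without mutant CSF3R replicate A or B 1397 and 1338 rose. Without mutant CSF3R replicate C, 7 S phase members and 1 G2/M member fell and the S phase median was -0.01. Calls were more frequent over all genes in that fit, where 3001 of 16871 rose and 3398 fell, so these falls do not single out the members.

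**Figure D4:**
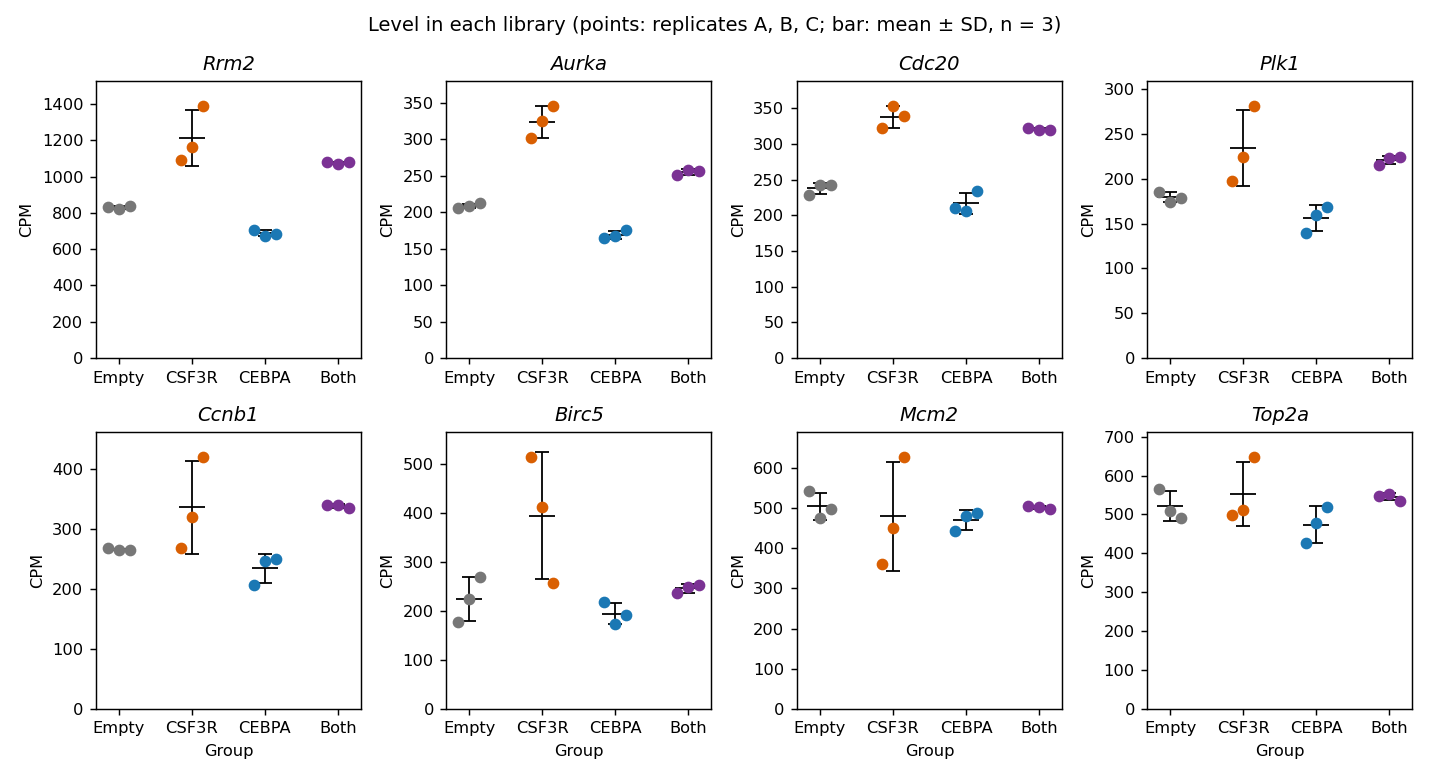
Level of 8 members in each library, in CPM on TMM-scaled library sizes, by group (points: replicates A, B and C from left to right; bars: mean ± SD, n = 3). Rrm2, Aurka and Cdc20 were higher in every library with CSF3R T618I, alone or with CEBPA V314VW, than in the empty vector libraries, while Mcm2 and Top2a overlapped. The share of all genes separated in this way was not computed.

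With mutant CEBPA alone 0 S phase members rose and 0 fell, and in the G2/M set 0 rose and 1 fell (edgeR, adjusted p under 0.05), where 9.5% of all genes rose, 7.68% fell and 9.15% were called. DESeq2 gave 0 and 1 in the S phase set and 0 and 3 in the G2/M set, while 1814 of 16360 genes rose and 1645 fell. At an unadjusted p under 0.05 by edgeR 1 member was higher and 4 were lower. The S phase median was -0.01, which became 0.03 with total-count scaling, and the G2/M median was -0.15, with 18 of 22 members below 0. Aurka was the member that fell, at 165, 167 and 175 CPM against the 206, 208 and 212 CPM of empty vector (-0.31 ± 0.08, adjusted p = 0.0172 by edgeR), with no overlap. Rrm2, at 707, 674 and 685 CPM, lay below all controls but did not pass (-0.27 ± 0.09, adjusted p = 0.0643 by edgeR). Tyms gave the largest positive value, at 208, 181 and 179 CPM (0.26 ± 0.10, adjusted p = 0.1 by edgeR), and was above all controls.

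Other members lay below, within or partly above the control range with mutant CEBPA. Plk1 stood at 140, 160 and 169 CPM, Ccnb1 at 207, 247 and 250 CPM and Top2a at 426, 477 and 519 CPM. Plk1 and Ccnb1 were below all empty vector libraries, and Top2a overlapped them. Mki67 stood at 236, 242 and 232 CPM and Cdk1 at 163, 160 and 173 CPM, both within or at the edge of the control range. Kif23, a kinesin of the central spindle, gave the highest G2/M value, 0.15 ± 0.13, with 76.7, 90.9 and 94.5 CPM against 85.3, 75.7 and 75.6 CPM. Mcm2 at 443, 480 and 488 CPM, Mcm5 at 456, 418 and 452 CPM and Pcna at 201, 178 and 191 CPM overlapped the controls. The Aurka call was lost without empty vector replicate B, when 0 G2/M members fell. In that set 2 fell without mutant CSF3R replicate A and 3 without replicate C. In the S phase set 1 rose and 1 fell without mutant CSF3R replicate C, and 1 fell without replicate A. Over all genes 1479 of 16731 fell without replicate A, while without replicate C 2014 of 16871 rose and 1703 fell.

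With both mutants, 5 of 49 members rose against empty vector and 0 fell, 2 of 27 in the S phase set and 3 of 22 in the G2/M set. The shares, 7.41% and 13.6%, lay near the 10.7% of all genes that rose (another 10.7% fell, and 11.6% were called, as were 0 of the 49 members). The medians were 0.10 and 0.14, against 0.01 over all genes. Rrm2 stood at 1081, 1070 and 1078 CPM, above the controls and with little spread (0.38 ± 0.09, edgeR adjusted p = 0.0097), and Cdc6, a helicase loader, rose by 0.31 ± 0.10, from 126 ± 2.84 to 157 ± 2.46 CPM (mean ± SD, n = 3). Deviations of same-letter libraries of these groups correlated weakly (0.234, 0.102 and 0.163). Across all groups, pairs with different letters reached 0.821 (empty vector replicate A with mutant CSF3R replicate C). Whether the letters mark pairs was not tested. With a replicate block over all 12 libraries Cdc6 no longer passed and 1 S phase member rose. In a paired fit of the 6 libraries of these groups alone, chosen after seeing the data, Cdc6 passed, and 5 S phase and 7 G2/M members rose. The same 6 libraries fitted without pairing gave 5 and 8, and Cdc6 passed there too. Calls over all genes were also more frequent in these fits, where 2170 of 15223 rose with pairing and 2193 without. With the block over all 12 libraries 1593 of 16360 rose. Cdc20 stood at 322, 320 and 320 CPM (0.43 ± 0.08), Aurka at 251, 258 and 256 CPM (0.29 ± 0.08) and Ccna2 rose by 0.29 ± 0.09. All were above all empty vector libraries.

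By DESeq2 7 members rose and 0 fell, while 2051 of 16360 genes rose and 2075 fell. By edgeR 11 members were higher and 0 lower at an unadjusted p under 0.05. Several members were separate from empty vector without passing, a pattern whose share over all genes was not computed. Ccnb1 stood at 341, 340 and 335 CPM (0.35 ± 0.14, adjusted p = 0.0988 by edgeR) and Plk1 at 216, 223 and 224 CPM. Prc1, which bundles microtubules of the central spindle, gave 0.43 ± 0.18, as large as Cdc20 but with an adjusted p of 0.13 by edgeR. The lowest values were those of Tk1 (thymidine kinase), at 69, 68.4 and 73.2 CPM against 71.3, 75.7 and 86.1 CPM, and Ccnb2, at 190, 189 and 193 CPM. Without any 1 of the empty vector, mutant CEBPA libraries or those with both mutants, or without mutant CSF3R replicate B, 1 S phase member rose in place of 2, and 4 and 5 rose without mutant CSF3R replicates A and C. Over all genes 1993 of 16731 rose without mutant CSF3R replicate A and 2256 of 16871 without replicate C. The G2/M count was 1 without empty vector replicate B or C or any library with both mutants, and 6 without mutant CSF3R replicate A or C; Rrm2 and Cdc20 passed in all 12 such fits, Aurka in 6, Ccna2 in 3 and Cdc6 in 2.

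Adding mutant CSF3R to mutant CEBPA, a comparison that shares no library with that of mutant CSF3R against empty vector, went with a rise of 7 of 49 members and a fall of 0. DESeq2 gave 12 and 1, while 1662 of 16360 genes rose and 1938 fell. At an unadjusted p under 0.05 by edgeR 16 members were higher and 1, Tyms, lower. In the S phase set 2 of 27 rose (7.41%) and in the G2/M set 5 of 22 (22.7%), where 7.79% of all genes rose, 10.1% fell and 8.54% were called; 0 members were called. The medians were 0.09 and 0.30, against -0.02 over all genes, and 0.02 and 0.22 with total-count scaling, when the median of all genes moved to -0.10. Of the 7, Rrm2, Ccna2, Aurka, Plk1 and Cdc20 had also risen with mutant CSF3R alone, which is 5 of 7 here and 5 of 14 there. The same overlap over all genes was not computed. Both comparisons came from 1 fit with a shared estimate of the spread, so their calls are not independent.

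Rrm2 rose from 707, 674 and 685 CPM to 1081, 1070 and 1078 CPM (0.64 ± 0.09, edgeR adjusted p = 0.000271), the largest change of any member in this comparison, and Aurka from 165, 167 and 175 CPM to 251, 258 and 256 CPM (0.59 ± 0.08, edgeR adjusted p = 0.000173). Cdc20 stood at 211, 206 and 234 against 322, 320 and 320 CPM (0.56 ± 0.08), Plk1 at 140, 160 and 169 against 216, 223 and 224 CPM (0.50 ± 0.12) and Ccnb1 at 207, 247 and 250 against 341, 340 and 335 CPM (0.53 ± 0.14). In these 5 genes every library with both mutants was above every library with mutant CEBPA. Cdc25a, the phosphatase that activates cyclin-dependent kinases, rose by 0.42 ± 0.10, and Ccna2 by 0.35 ± 0.09. Tyms moved the other way, from 208, 181 and 179 CPM to 154, 155 and 153 CPM, and did not pass (-0.30 ± 0.10, adjusted p = 0.0559 by edgeR). Kif23, at 80.1, 82 and 80.9 CPM with both mutants, gave the lowest G2/M value (-0.11 ± 0.13).

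Rrm2, Aurka, Cdc20 and Plk1 passed without any 1 of the 12 libraries. The S phase count was 6 without mutant CSF3R replicate C and 1 without mutant CEBPA replicate A or replicate B or C of both mutants, and 1 S phase member fell without mutant CSF3R replicate A or C. The G2/M count was 8 and 11 without mutant CSF3R replicates A and C and 3 without any library with both mutants. Over all genes 1520 of 16731 rose and 1911 fell without mutant CSF3R replicate A. Without replicate C 1803 of 16871 rose and 2166 fell.

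Adding mutant CEBPA to mutant CSF3R went with a rise of 0 members and a fall of 5, namely 1 of 27 in the S phase set (3.7%) and 4 of 22 in the G2/M set (18.2%). DESeq2 gave 0 and 7, while 1729 of 16360 genes rose and 2201 fell. At an unadjusted p under 0.05 by edgeR 0 members were higher and 9 lower. Of all genes, 8.43% rose, 10.1% fell and 8.69% were called, as were 0 members. The medians were 0.01 and -0.10, against -0.02 over all genes. This comparison shares the mutant CSF3R libraries with that of mutant CSF3R against empty vector. Aurka fell from 301, 325 and 345 CPM to 251, 258 and 256 CPM (-0.34 ± 0.08, edgeR adjusted p = 0.00912), and Ccnb2 from 254, 253 and 241 CPM to 190, 189 and 193 CPM (-0.39 ± 0.08, edgeR adjusted p = 0.00545), each without overlap. Birc5, at 514, 411 and 257 CPM with mutant CSF3R and 236, 248 and 253 CPM with both, gave the largest fall (-0.68 ± 0.21, edgeR adjusted p = 0.0412). Its call held in 3 of 12 fits without 1 library and in 4 of 8 other settings, and without mutant CSF3R replicate A its value was -0.44. Tk1 fell from 87, 87.7 and 86.3 CPM to 69, 68.4 and 73.2 CPM (-0.31 ± 0.10), and Cenpe fell too (-0.26 ± 0.08, edgeR adjusted p = 0.0497).

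Other members did not pass between mutant CSF3R alone and both. Cdk1 stood at 268, 249 and 216 against 196, 196 and 196 CPM (-0.32 ± 0.11, adjusted p = 0.0616 by edgeR), Mki67 at 386, 345 and 422 against 332, 291 and 305 CPM and Gins1 at 48.4, 45.5 and 33.6 against 32.8, 33.5 and 33.9 CPM. The highest values were those of Pole, at 41.8, 53.2 and 86.4 against 80.8, 77.9 and 76.4 CPM (0.38 ± 0.21), and of the checkpoint kinase Bub1b, at 158, 201 and 293 against 264, 273 and 259 CPM (0.29 ± 0.17). Ccnb2 passed without any 1 library, but with the length trend taken out it did not pass and its value was -0.20; Tk1 passed in 5 of the 12 fits without 1 library and Cenpe in 1. Without mutant CSF3R replicate C, 10 S phase members rose and 3 fell and 3 G2/M members rose, with an S phase median of 0.13. Calls were more frequent over all genes in that fit too, where 3437 of 16871 rose and 3229 fell. The S phase count of 1 that fell became 0 without empty vector replicate B, mutant CSF3R replicate A or B, mutant CEBPA replicate C or any library with both mutants, and the G2/M count of 4 became 2 without empty vector replicate B, mutant CSF3R replicate A or B, any mutant CEBPA library or replicate B or C of both mutants, and 1 without replicate A of both.

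**Figure D5:**
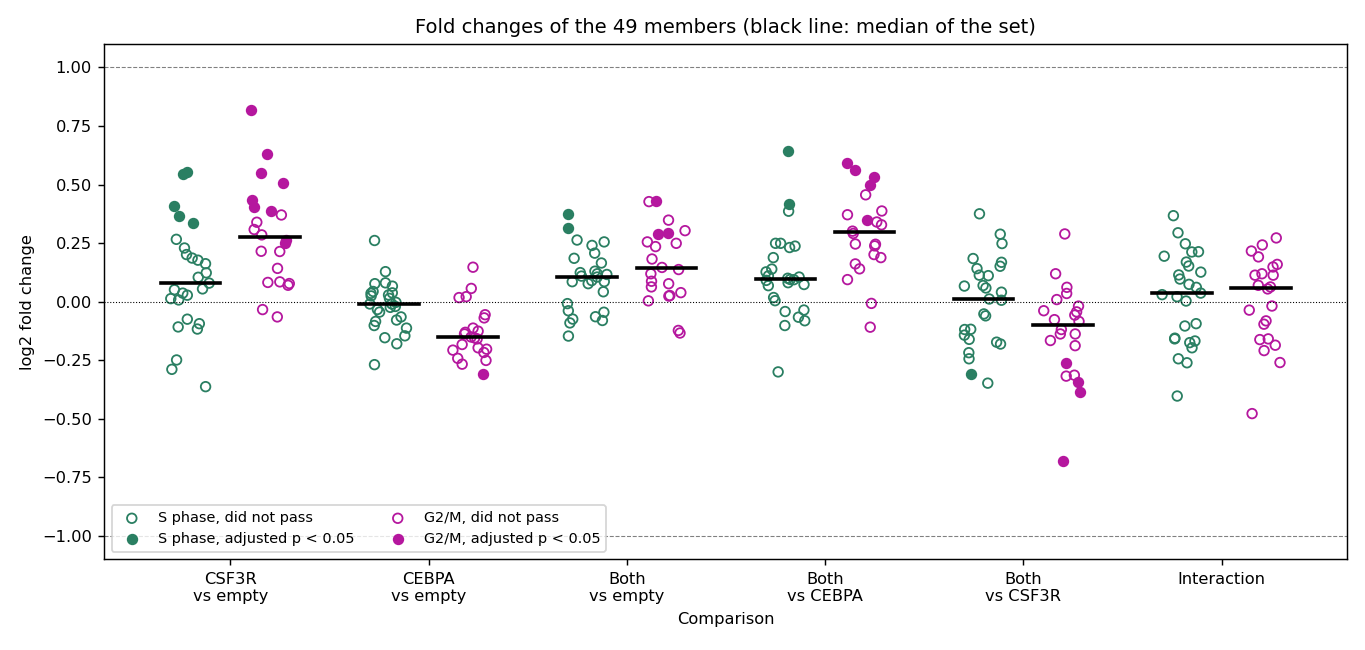
Log2 fold change of each of the 49 members in the 6 comparisons, S phase set in green and G2/M set in magenta (filled: adjusted p under 0.05 by edgeR; black line: median of the set; dashed lines: log2 fold change of 1 and -1). No member reached a log2 fold change of 1 in either direction, and the G2/M medians were 0.27, -0.15, 0.14, 0.30 and -0.10 in the 5 comparisons between groups.

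The interaction, which sets the mutant CSF3R effect in cells with mutant CEBPA against that in cells lacking it, passed for 0 of 49 members by edgeR and 0 by DESeq2, while 0.501% of all genes were above 0 and 1.27% below it at an adjusted p under 0.05, and 1.4% were called. By DESeq2 236 of 16360 genes were above 0 and 390 below it at an adjusted p under 0.05. At an unadjusted p under 0.05 by edgeR, 2 members passed. The medians were 0.04 in the S phase set and 0.06 in the G2/M set, with standard errors of single members from 0.113 to 0.297. The widest values were 0.37 ± 0.26 for Pola1 and -0.40 ± 0.14 for Tyms in the S phase set, and 0.27 ± 0.25 for Bub1b and -0.48 ± 0.30 for Birc5 in the G2/M set. For Aurka it was -0.04 ± 0.11, for Rrm2 0.10 ± 0.13 and for Cdc20 0.05 ± 0.12, which does not show that the effects were equal in the presence and absence of mutant CEBPA. Without mutant CSF3R replicate C, 1 S phase member fell, and 1 G2/M member rose and 1 fell, while 1011 of 16871 genes rose and 734 fell.

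Other genes of the pathway, 50 of replication and 50 of mitosis, were all tested. With mutant CSF3R alone 3 replication genes (6%) and 8 mitosis genes (16%) rose and 0 fell, against 10% of all genes that rose and 9.66% that fell. The largest values were those of Donson, a replication fork factor, at 0.76 ± 0.08, and Ube2c, the ubiquitin-conjugating enzyme that works with Cdc20, at 0.66 ± 0.16. Donson was at 25 ± 0.911 CPM with empty vector and 42.4 ± 1.59 CPM with mutant CSF3R (SD, n = 3). Their medians were 0.04 and 0.14, in the same order as those of the members. With mutant CEBPA 0 replication genes passed, while 1 mitosis gene rose (2%) and 2 fell (4%), against 9.5% and 7.68% of all genes. The gene that rose was Ect2, the exchange factor that starts cytokinesis, from 171 ± 15.2 to 374 ± 54.3 CPM (1.13 ± 0.18), and the genes that fell were Mybl2, a transcription factor of mitotic genes (-0.52 ± 0.11), and Tacc3, a spindle protein bound by Aurora A (-0.29 ± 0.07).

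With both mutants against empty vector, 1 replication gene (2%) rose, and 3 mitosis genes rose (6%) and 2 fell (4%), below the 10.7% of all genes in each direction. Ect2 again rose by the most, to 427 ± 17.5 CPM (1.32 ± 0.18), with Kif14, a kinesin of cytokinesis, at 0.36 ± 0.11; securin Pttg1 (-0.65 ± 0.21) and the kinase Melk (-0.34 ± 0.10) fell. Against mutant CEBPA, 1 replication gene (2%) and 5 mitosis genes (10%) rose and 0 fell, against 7.79% and 10.1% of all genes, among them Donson (0.49 ± 0.08) and Ccnf, or cyclin F (0.47 ± 0.15). Against mutant CSF3R, 1 replication gene rose and 2 fell (2% and 4%), and 1 mitosis gene rose and 5 fell (2% and 10%), against 8.43% and 10.1% of all genes, with Ect2 (1.33 ± 0.18) and the kinase Cdc7 (0.32 ± 0.08) up and Pttg1 (-0.83 ± 0.21) and Ube2c (-0.59 ± 0.16) down. Ect2 was called in each comparison in which only 1 of the groups carried mutant CEBPA, while 0 of the other 99 genes were called in any comparison.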

How the data were processed

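RNA-seq was analysed from 12 libraries of mouse Lin- bone marrow, 3 in each of 4 groups taken from the sample titles. Per the labels and the study's methods, RNA was made into cDNA with the SMARTer universal low input kit and sequenced as single reads, which the authors trimmed with Trimmomatic and aligned with STAR; mm10 is the build in the submitters' processing notes. The authors deposited raw counts of reads per gene, with no normalization. How reads were assigned to genes, with which annotation and whether by strand, is not given in the sources used here. Of 51918 rows, 6 repeated a gene and were dropped, and 0 columns lacked a matching sample. Libraries held 44210071 to 67431235 counts.

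The counts were tested in R 4.3.3 with edgeR 4.0.16 (TMM scaling, filterByExpr by group, robust quasi-likelihood F test, Benjamini-Hochberg adjustment over 16360 genes) in 1 model of the CSF3R and CEBPA vectors with an interaction term, after a check on simulated counts. Genes rose or fell at an adjusted p under 0.05 and were called if the absolute log2 fold change was also over 1. CPM used TMM-scaled library sizes, exon lengths and coordinates came from GENCODE M21, and promoters came from RefSeq, at the most upstream start where a gene had several. Members given by library are a fixed set of 10, those with the highest and lowest log2 fold change of each set in each comparison, and any that were called; other pathway genes are named up to 2 in each direction. The members, gene lists and tests were chosen with earlier results of these data known. Alternatives were DESeq2 1.42.0, its size factors, total-count scaling, no filter, the compared groups only, limma 3.58.1 voom with group weights, a lowess length trend taken out, a replicate block, and leaving out each library. Replicate letters come from the sample titles; in the comparison of both mutants with empty vector all 3 same-letter pairs had a correlation of deviations over 0.1 (0.234, 0.102 and 0.163), so a paired fit of these libraries was added after seeing the data.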

Additional observations from a re-analysis of the deposited data

How the results depend on the processing

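Of the 32 member results that passed, 0 changed direction under any alternative, and of their 645 values under alternatives 457 still passed and 188 did not. Counts of members that rose or fell moved by more than 1.5 times as follows, the cause not tested. With mutant CSF3R against empty vector, 3 S phase members rose with total counts, with no filter and with voom group weights, and 1 with the compared groups only. In the G2/M set 5 members rose with total counts and 2 with the compared groups only. Of 16360 genes, 1231 rose with total counts and 1123 with voom. With no filter 1450 of 30036 genes rose, and with the compared groups only 898 of 15304. With mutant CEBPA, 1 S phase member rose with voom and 1 fell with DESeq2, its size factors, the compared groups only and voom. In the G2/M set 3 fell with DESeq2, 2 with voom and 0 with no filter. Of 16360 genes, 1645 fell with DESeq2, 1316 with its size factors and 1528 with voom, where 1801 rose. With no filter 1132 of 30036 genes fell, and with the compared groups only 1373 of 15432. With both mutants against empty vector, S phase members that rose numbered 4 with DESeq2, 1 with total counts, 1 with no filter, 5 with the compared groups only and 7 with the length trend taken out, and G2/M members 1 with no filter, 8 with the compared groups only and 5 without the length trend. Of 16360 genes, 2051 rose with DESeq2, 1649 with total counts and 2029 without the length trend. With no filter 1612 of 30036 genes rose, and with the compared groups only 2193 of 15223. Against mutant CEBPA, S phase members that rose numbered 5 with DESeq2, 8 with the compared groups only and 6 without the length trend, 1 fell with DESeq2, total counts and the compared groups only, and G2/M members that rose numbered 15 with the compared groups only and 10 without the length trend. Of 16360 genes, 1662 rose with DESeq2 and 1720 without the length trend, while 1938 fell with DESeq2 and 2144 with total counts. With the compared groups only 2285 of 15360 genes rose and 2411 fell. Against mutant CSF3R, S phase members that fell numbered 2 with DESeq2, 0 with total counts, no filter and the compared groups only, and 2 without the length trend, and G2/M members 2 with total counts and 1 with no filter and with the compared groups only. Of 16360 genes, 2201 fell with DESeq2, 1283 with total counts and 1894 without the length trend. With no filter 1386 of 30036 genes fell, and with the compared groups only 1005 of 15399.

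Of 18 same-letter pairs, 5 had a correlation of deviations over 0.1 (range -0.764 to 0.659). Among these were all 3 pairs of both mutants with empty vector. Pairs with different letters reached 0.821, so these values do not show that the letters mark pairs. With a replicate block, 3 S phase members rose with mutant CSF3R and 1 with both mutants against empty vector (5 and, in the G2/M set, 7 in the block with the compared groups only, added after seeing the data), and against mutant CSF3R 0 S phase and 2 G2/M members fell. Of 16360 genes in the block over all libraries, 1347 rose with mutant CSF3R and 1593 with both against empty vector. Against mutant CSF3R 1263 fell. With the compared groups only, 2170 of 15223 rose. Leaving out 1 library at a time gave 2 to 6 S phase and 4 to 9 G2/M members that rose with mutant CSF3R, and 0 to 7 and 0 to 1 that fell. Over all genes 1175 to 3001 rose and 1133 to 3398 fell in these fits, with the most of each without mutant CSF3R replicate C. With mutant CEBPA 0 to 1 S phase members rose and 0 to 1 fell, and 0 to 3 G2/M members fell. With both mutants 1 to 5 and 1 to 6 rose against empty vector. Against mutant CEBPA 1 to 6 and 3 to 11 rose and 0 to 1 S phase members fell. Against mutant CSF3R 0 to 10 and 0 to 3 rose and 0 to 3 and 1 to 5 fell, while 995 to 3437 of all genes rose and 939 to 3229 fell. In the interaction 0 to 1 S phase member fell, and 0 to 1 G2/M member rose and 0 to 1 fell. The G2/M minus S phase difference of mutant CSF3R replicate A was 0.18 over all members and 0.07 over the shorter ones. Counting error was at or above the spread between replicates for 8 of 49 members with both mutants and for 1 or 2 in each other group.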
